A study of Mus musculus with 2 samples.

Results

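The members are 86 protein-coding mouse genes that encode the proteins of the cytosolic ribosome, or paralogs of them, among 43346 mouse genes quantified by total RNA-seq in embryonic kidney. They were chosen by symbol: Rpl or Rps and a number, plus Rpsa, Rplp0, Rplp1 and Rplp2, without the 10 genes of S6 kinases. Of the 86, 77 are core members, 46 of the large and 31 of the small subunit. Another 8 are paralogs of a core gene, and 1, Rps19bp1, encodes a binding protein of Rps19 that acts on the deacetylase Sirt1 and is no part of the ribosome. A further 7 symbols of the same form are typed as pseudogenes in the GENCODE vM21 annotation and were not taken. The constituents Fau and Rack1 carry other names and are given beside the members.

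All RNA came from whole kidneys of B6NCrl mouse embryos of both sexes at day 16.5 of gestation, with no treatment and no second genotype. There were 2 libraries, each from a separate pool of embryos; the pool of replicate 2 held 41 embryos, and the labels leave out the size of the other pool. Each library started from 10 ng of RNA over 200 nt with external spike-ins, and totalled 35255968 estimated counts in replicate 1 and 38706236 in replicate 2. With 1 group, no comparison between conditions can be made, and in a whole organ fewer cells of a type and less RNA per cell cannot be told apart. Of 10 kidney markers, 10 stood at 1 TPM or more in both libraries, with a summed level of 1082 and 1119 TPM. TPM is a level per length of transcript, scaled to the same total in each library.

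The ribosome joins a small subunit, which reads the mRNA, to a large subunit, which forms the peptide bond, and a working particle holds each core protein once, apart from the stalk proteins Rplp1 and Rplp2, which are present in several copies. Their mRNAs begin in most cases with a C followed by a run of pyrimidines, the terminal oligopyrimidine motif, through which mTOR and Larp1 control their translation together. Vertebrate genomes also hold many processed pseudogenes of these genes, and a few functional paralogs with narrow tissue ranges, such as Rpl3l in striated muscle and Rpl10l and Rpl39l in male germ cells.

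The coding sequences of 2 paralog pairs are shown because they set what sequencing can tell apart. The first pair is Rpl39, a small protein of the peptide exit tunnel encoded on chromosome X, and its paralog Rpl39l on chromosome 16. Lower case follows GENCODE vM21 from start to stop codon, and capitals mark bases that differ from the parent gene. Rpl39l differs at 23 of 156 bases, and their longest identical run is 38 bases.
Rpl39: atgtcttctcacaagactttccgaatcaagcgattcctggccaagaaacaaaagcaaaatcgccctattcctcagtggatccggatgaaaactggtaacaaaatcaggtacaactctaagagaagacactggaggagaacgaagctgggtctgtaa
Rpl39l: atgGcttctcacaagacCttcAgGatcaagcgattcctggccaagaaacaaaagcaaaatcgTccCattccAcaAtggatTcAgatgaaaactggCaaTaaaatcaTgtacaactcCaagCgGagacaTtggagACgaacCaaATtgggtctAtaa
The second set holds Rps27, a zinc-finger protein of the small subunit encoded on chromosome 3, and Rps27l, its paralog on chromosome 9, which p53 is known to induce. Rps27l differs from Rps27 at 61 of 255 bases, with a longest identical run of 11 bases. The coding sequence of Rps27rt, a single-exon retrogene on chromosome 9, is identical to that of Rps27 over all 255 bases, so the letters printed for Rps27 are also those of Rps27rt.
Rps27: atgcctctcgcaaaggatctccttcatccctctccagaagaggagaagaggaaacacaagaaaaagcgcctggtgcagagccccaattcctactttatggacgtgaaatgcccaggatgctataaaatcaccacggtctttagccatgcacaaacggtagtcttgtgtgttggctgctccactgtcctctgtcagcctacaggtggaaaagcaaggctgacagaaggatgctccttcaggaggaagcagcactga
Rps27l: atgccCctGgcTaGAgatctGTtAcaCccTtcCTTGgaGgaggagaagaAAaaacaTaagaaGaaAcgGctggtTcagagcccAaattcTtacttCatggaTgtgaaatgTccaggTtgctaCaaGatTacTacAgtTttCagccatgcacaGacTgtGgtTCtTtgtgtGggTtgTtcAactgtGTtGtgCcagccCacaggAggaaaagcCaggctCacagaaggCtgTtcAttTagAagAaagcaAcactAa

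Of the 86 members, 83 reached 1 TPM in both libraries, where 62.2% of all protein-coding genes did. The members below it were the paralogs Rpl3l, Rpl10l and Rpl39l. Together the members held 5.75% of TPM in replicate 1 and 6.003% in replicate 2, but 2.31% and 2.39% of the counts on mouse genes, since their transcripts are short. Among the 100 protein-coding genes with the highest TPM, 26 were members in replicate 1 and 25 in replicate 2. The median core member stood at 648 TPM in replicate 1 and 689 in replicate 2, against 20.7 TPM in both libraries for detected protein-coding genes. The 77 proteins of the mitochondrial ribosome, the most similar family by name and task, had a median of 98.1 and 98.4 TPM, with a range from 20.2 to 314 in replicate 1.

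Core members are needed in equal numbers, apart from the stalk proteins, but their RNA levels were not equal. The 90th percentile of core TPM was 4.68 times the 10th in replicate 1 and 4.95 times in replicate 2, and the highest member exceeded the lowest 45.0-fold and 44.9-fold. The SD of log2 TPM over core members was 0.98 and 0.97, against 0.85 and 0.84 over mitochondrial ribosomal proteins. Within 2-fold of the median lay 60 of 77 core members in replicate 1 and 59 in replicate 2. Across the 77 core members, mean TPM and effective length, the length available to a fragment's start, had a Spearman rho of -0.22, given as a description of genes that share the same libraries.

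**Figure D1:**
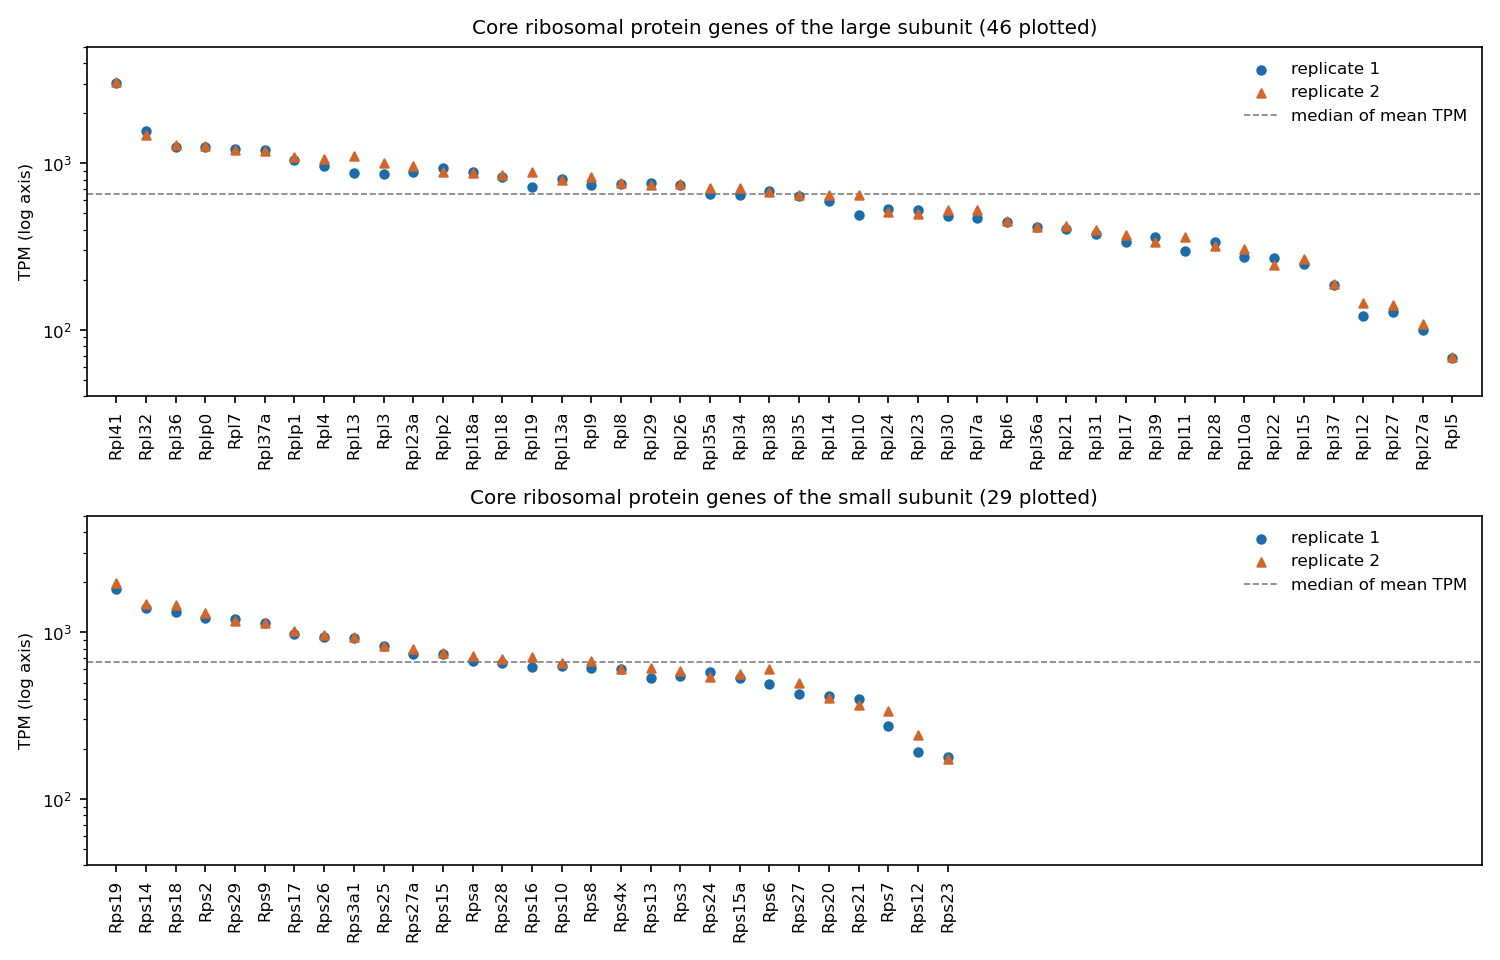
TPM of 75 of the 77 core members on a log axis, ranked by mean in each subunit, with 1 symbol per library and a dashed line at the median of the plotted genes. Both libraries give nearly the same order, from Rpl41 near 3060 TPM to Rpl5 near 68.

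In the large subunit, Rpl41, the smallest ribosomal protein, led with 3060 and 3075 TPM in replicates 1 and 2, a mean of 3067 ± 10.2 (SD, n = 2). It was the 11th of all protein-coding genes by mean TPM. Rpl32 followed with 1567 and 1476 TPM, and Rpl36 with 1250 and 1292. Rplp0, the base of the stalk that recruits translation factors, stood at 1258 and 1270 TPM. Its partners Rplp1 and Rplp2, which sit on it as dimers, stood at 1053 and 1088 TPM and at 941 and 889 TPM. The stalk proteins present in several copies thus had no higher RNA level than Rplp0 in either library. Rpl7 was at 1225 and 1195 TPM and Rpl37a at 1210 and 1184. At the other end, Rpl5 had 68.0 and 68.5 TPM, Rpl27a 100 and 109, Rpl12 122 and 146, and Rpl27 127 and 140. Rpl5 and Rpl11 bind the 5S ribosomal RNA together and, when assembly fails, the p53 regulator Mdm2; Rpl11 stood at 299 and 362 TPM, above Rpl5 in both libraries. Rpl37 was at 187 and 190 TPM, Rpl15 at 248 and 266, Rpl22 at 272 and 247, Rpl10a at 273 and 306, and Rpl28 at 336 and 320.

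In the small subunit, Rps19, whose loss of 1 allele is a common cause of Diamond-Blackfan anaemia, led with 1826 and 1994 TPM, a mean of 1910 ± 119 (SD, n = 2). Rps14 stood at 1392 and 1479 TPM, Rps18 at 1334 and 1465, Rps2 at 1221 and 1300, and Rps29 at 1207 and 1167. The lowest small subunit members were Rps23, a protein of the decoding centre, with 179 and 173 TPM, Rps12 with 192 and 241, and Rps7 with 275 and 337. The median was 654 and 709 TPM over small subunit genes and 643 and 659 over large subunit genes. The log2 ratio of the large over the small median was -0.02 in replicate 1 and -0.10 in replicate 2, so the medians lay close together, while a mean of log2 TPM set the large subunit lower by 0.32. Large subunit genes also spread more widely, with an SD of log2 TPM of 1.08 against 0.79 in replicate 1.

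The 3 stalk genes lay close together, between 915 and 1264 TPM by mean, while other groups that share a place or a disease spread more widely. The 13 Diamond-Blackfan anaemia genes listed ran from Rpl5 at 68.3 TPM to Rps19 at 1910 TPM by mean, with medians of 651 and 689 TPM, near those of all core members. The 7 proteins around the peptide exit ran from Rpl39 at 347 TPM to Rpl23a at 927, and the 3 at the mRNA entry channel from Rps3 at 569 to Rps2 at 1261. The 4 X-linked core genes, of which 1 copy is active in each cell, had medians of 452 and 510 TPM, below the median of all core members. Whether the number of active copies had a part in this was not tested. Among them Rps4x stood at 604 and 604 TPM, Rpl10 at 488 and 649, Rpl36a at 417 and 416, and Rpl39 at 359 and 336. Constituents outside the name rule fell in the same range: the scaffold Rack1 had 638 and 600 TPM, and Fau 364 and 441.

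Core members share sequence with processed pseudogenes, and most of the lowest core members had over 50% of the counts of their family there. By sequence, 759 annotated pseudogenes matched a member over at least 100 nt at 90% identity or more, and 74 of the 77 core members had at least 1. They took 159065 counts in replicate 1 and 139952 in replicate 2, which is 16.7% and 13.4% of the counts on members and pseudogenes together. Of 100-nt windows of their protein-coding transcripts, core members shared a median of 28.0% with another gene. Among the 12 core members with the lowest mean TPM, 8 had over 50% of the counts of their family on pseudogenes, and the median share was 58.9%. Among the 12 highest the median share was 1.44%, and over all core members it was 4.08%. Mean TPM and this share had a Spearman rho of -0.49 over 77 core members, as a description. The counts of the member enter both quantities, so a lower TPM goes with a higher share in part by construction.

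In TPM, which is per length, individual copies stood far above their parents. The pseudogene Gm15500 on chromosome 7 matched Rpl5 at 100% identity and held 670 and 691 TPM, against 68.0 and 68.5 for Rpl5. Rps23-ps1 on chromosome 3, also identical over its 425 bases, held 1052 and 1048 TPM against 179 and 173 for Rps23. Rpl15-ps3 held 881 and 892 TPM against 248 and 266 for Rpl15. For Rpl27 the copies Gm11518 and Rpl27-ps3 held 536 and 488 TPM and 392 and 389 TPM. Gm7536 held 513 and 476 TPM beside Rpl27a, Gm10275 372 and 361 beside Rpl12, and Rpl37rt 676 and 652 beside Rpl37. In counts, which are not per length, Rpl15-ps3 had 10434 and 11482 against 6353 and 7519 for Rpl15. Rpl37rt had 3100 and 3208 counts against 3302 and 3635 for Rpl37, and it alone of these copies was below its parent. Of the 30 matched pseudogenes at a mean of 100 TPM or more, 19 were identical to the member over the aligned bases and the least similar reached 98.7%. No pseudogene met the matching rule for Rpl41 and Rps9. Still, 9.85% of the 100-nt windows of Rpl41 were also in Gm10076, and 8.29% of those of Rps9 in the pseudogene Gm5905. Rpl22 and Rps21 had matches but shared no 100-nt window. How much of these counts was transcribed from the pseudogenes was not tested.

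When the counts of the matched pseudogenes were added to their member, an alternative chosen after seeing the data, the core levels moved closer together. The SD of log2 levels went from 0.98 to 0.66 in replicate 1 and from 0.97 to 0.67 in replicate 2, and the 90th over the 10th percentile from 4.68 to 3.21 and from 4.95 to 3.23. The SD was then below the 0.85 and 0.84 of mitochondrial ribosomal proteins, to which no pseudogene counts were added. The number within 2-fold of the median became 68 of 77 in each library. Rpl5 went to 566 and 584 on the TPM scale, Rps23 to 704 and 695, Rpl27 to 672 and 662, and Rpl15 to 658 and 675. Rpl11 went to 544 and 550, so its order with Rpl5 turned round in both libraries. The lowest core member was then Rpl22, at 272 and 247, and the highest remained Rpl41. Rpl27a, at 284 and 280, and Rpl12, at 349 and 370, remained low. Rpl13 went from 872 and 1111 TPM to 1825 and 1886, which placed it above the median by more than before.

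**Figure D2:**
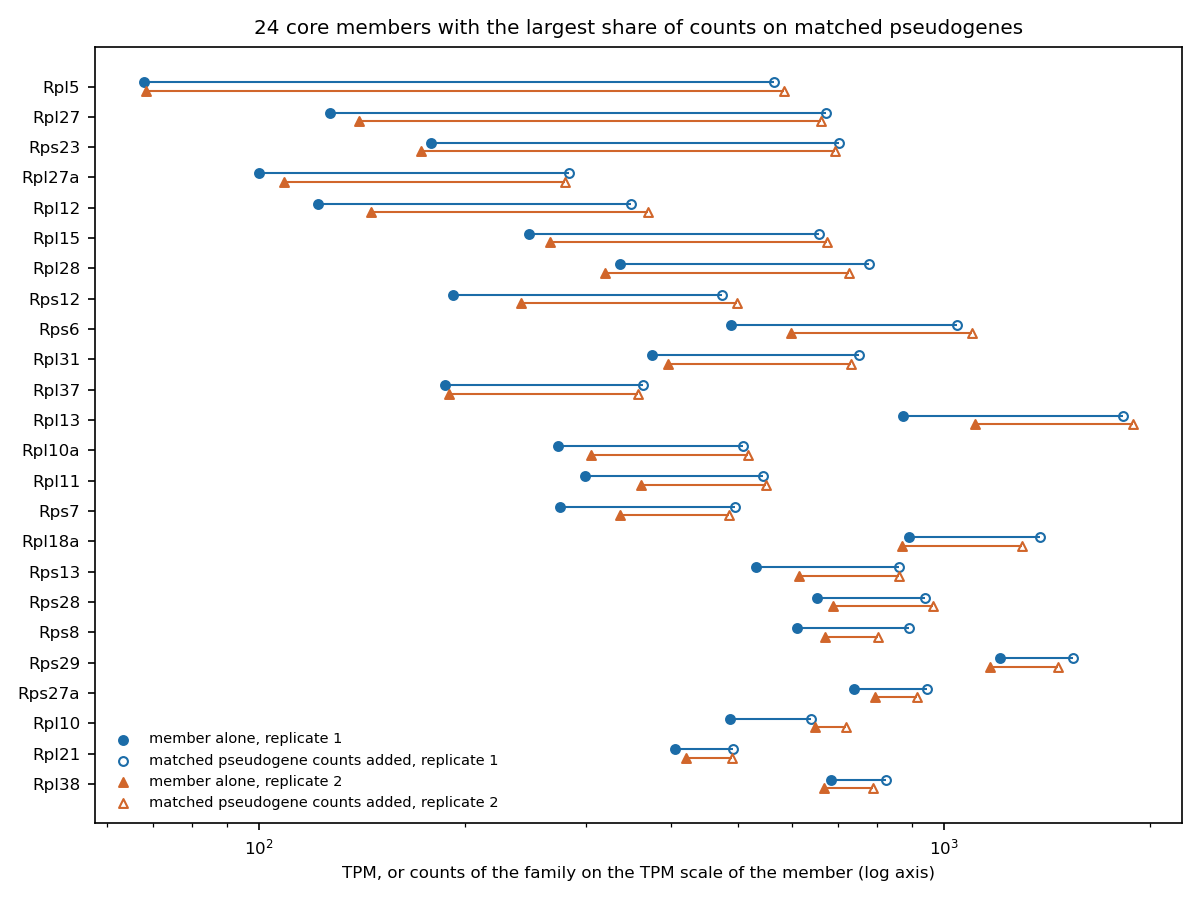
Level of 24 core members alone (filled) and with the counts of matched pseudogenes added (open), per library, on a log axis in TPM or on the member's TPM scale. The lines are longest for Rpl5, Rpl27 and Rps23, which lie between 68.0 and 179 TPM alone in replicate 1 and between 566 and 704 with the copies added.

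The deposited bounds on TPM were narrow for the same genes. They are a lower and an upper value that the authors' software gave for each gene, with no stated level of confidence in the files. For core members the upper bound was a median of 1.06 times the lower in replicate 1 and 1.05 times in replicate 2. The widest were those of Rps27, from 359 to 464 TPM in replicate 1, a ratio of 1.29, and of Rps12, from 167 to 206 TPM, a ratio of 1.23. Next came Rpl27 at 1.16, Rpl12 at 1.15, Rpl5 at 1.14, Rpl11 at 1.13, Rpl31 at 1.13, Rpl28 at 1.12, Rpl27a at 1.12 and Rpl15 at 1.12. Rpl5 was thus bounded between 62.9 and 71.6 TPM in replicate 1, and its level with pseudogene counts added was 566. Of the 83 detected members, 0 had an upper bound over 1.5 times the lower, against 12% of detected protein-coding genes; the undetected Rpl3l, Rpl39l and Rpl10l did. At a ratio of 1.2, 2 of the 83, Rps27 and Rps12, did, against 40.8% of detected protein-coding genes and 1.36% of the 2566 protein-coding genes at or above the mean TPM of Rpl5. The bound ratio and the share of counts on pseudogenes had a Spearman rho of 0.62 over core members, as a description, although all ratios stayed below 1.3. In each library the TPM of 36 of 86 members lay outside its own bounds, whereas the posterior mean TPM of 0 members did; the bounds belong to that second estimate.

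Within the genes, 91.0% of core TPM in replicate 1 and 91.8% in replicate 2 fell on transcripts typed as protein-coding in vM21. Retained-intron transcripts held 3.26% and 2.95%, processed transcripts without a reading frame 4.03% and 3.74%, and transcripts of nonsense-mediated decay 0.47% and 0.49%. The remaining transcripts have no entry in vM21. For 59 of 77 core members, or 76.6%, over 90% of TPM was on coding transcripts in both libraries, where 64.3% of detected protein-coding genes were. For 6, or 7.79%, it was under 50% in both, near the 7.06% of detected protein-coding genes.

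Those 6 were Rpl35, Rps20, Rpl12, Rpl13a, Rpl23 and Rpl5. Rpl35, a protein beside the exit of the tunnel, had 5.54% and 5.84% of its TPM on coding transcripts; a processed transcript of 541 nt held 88.2% and 87.6%, and the coding model is 946 nt long. Rps20 had 6.77% and 6.86%; a retained-intron transcript of 582 nt held 90.1% and 91.9%, beside a coding model of 3706 nt. In Rpl12 a transcript of the nonsense-mediated decay type held 58.9% and 60.7%. Rpl23 had 40.2% and 46.4% on coding transcripts and a processed transcript at 58.3% and 52.7%. In Rpl13a the leading transcript, at 34.4% and 30.8%, has no entry in vM21, so its share on coding transcripts of 29.2% and 30.4% leaves out transcripts whose type is unknown here. Rpl5 divided between a retained-intron transcript at 51.1% and 47.8% and a coding one at 39.7% and 38.8%. Further up were Rps18 at 51.4% and 55.8% and Rps19 at 68.6% and 69.1%. Among core members, the leading transcript differed between the libraries in Rpl11 alone, where coding models of 833 and 622 nt held 44.4% and 44.2% in replicate 1 and 41.6% and 50.7% in replicate 2. The leading models of Rpl35 and Rps20 were far shorter than their coding models. Of windows of protein-coding transcripts, other genes shared 83.0% in Rpl35, 82.7% in Rpl5, 46.8% in Rpl12 and 33.0% in Rpl13a. In Rpl23 and Rps20 they shared 19.5% and 5.9%. Matched pseudogenes held 88.0% and 88.3% of the family's counts for Rpl5 in replicates 1 and 2, and 65.1% and 60.6% for Rpl12. For the others of the 6 it was at most 0.89% in either library. How far model length or shared sequence fixed these divisions was not tested.

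**Figure D3:**
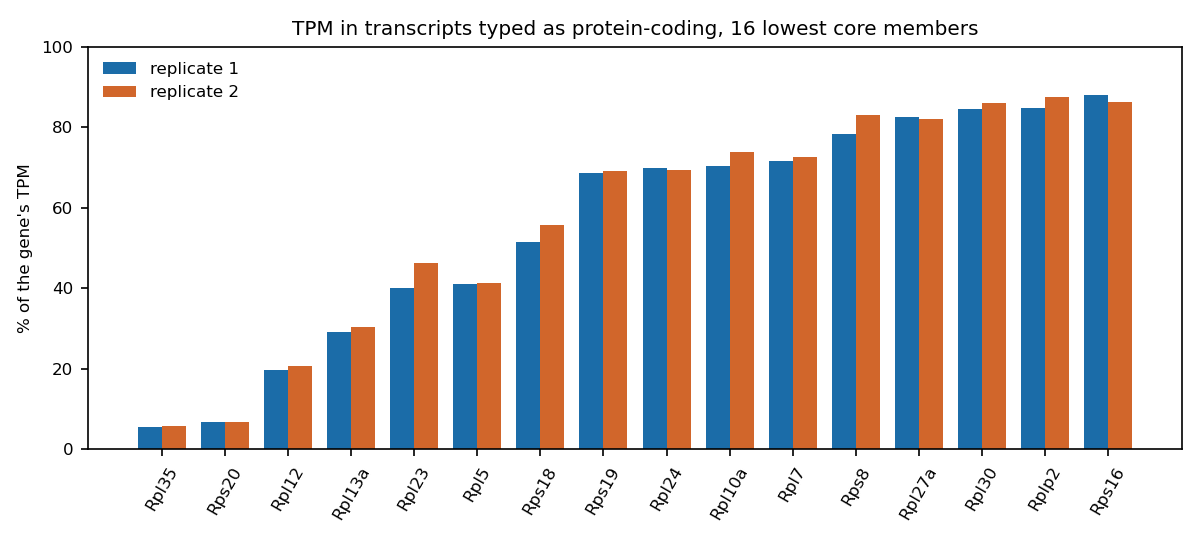
Percent of a gene's TPM on transcripts typed as protein-coding, for the 16 core members with the lowest share, with 1 bar per library. Rpl35 and Rps20 lie below 7% in both libraries, and 6 members lie below 50%.

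Paralogs fell into groups that were near their parent, well below it or almost without counts. Rps27rt had 988 and 969 TPM against 425 and 498 for Rps27, a ratio of 2.33 and 1.95 (2.14 ± 0.27, SD, n = 2). Of the 100-nt windows of Rps27rt, untranslated parts included, 89.5% are also in Rps27, and the gene model of Rps27 in the deposited tables is 255 nt long, the coding sequence alone. It is 345 nt in vM21, while the deposited Rps27rt model is 370 nt, so the division of counts between them is uncertain. Rps27l, which shares no window with any other gene, stood at 498 and 491 TPM, 1.17 and 0.99 times Rps27. Rpl36al had 433 and 408 TPM against 417 and 416 for the X-linked Rpl36a, a ratio of 1.04 and 0.98. Rpl22l1 had 260 and 258 TPM against 272 and 247 for Rpl22, a ratio of 0.96 and 1.05, so which gene of these pairs was higher in TPM differed between the libraries. On protein-coding transcripts alone Rpl22l1 was below Rpl22 in both, with a mean ratio of 0.80. Rpl7l1, known as a factor of large subunit assembly, had 131 and 134 TPM, 0.11 times Rpl7 in each library. It is the least similar to its parent, with 53.0% identical bases, against 87.8% for Rpl36al and 66.9% for Rpl22l1. In expected counts, which are not per length, the mean ratio to the parent was 3.71 for Rps27rt, 2.78 for Rps27l, 0.67 for Rpl22l1 and 0.40 for Rpl7l1. Rps19bp1, the binding protein, stood at 38.2 and 42.6 TPM.

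The tissue-restricted paralogs were near 0 although their parents were abundant. Rpl3l, the muscle form, had 2 counts in replicate 1 and 3 in replicate 2, at 0.08 and 0.13 TPM, while Rpl3 had 864 and 1009 TPM. The ratio of Rpl3 to Rpl3l was 10801 in replicate 1, with a 95% exact Poisson interval on the Rpl3l count of 2830 to 84416, and 7764 in replicate 2, with an interval of 2681 to 37993. Rpl39l had 0 counts in replicate 1 and 1 in replicate 2, beside 359 and 336 TPM for Rpl39. Against a floor of 3 counts, which is 0.23 TPM, Rpl39 was at least 1590-fold higher in replicate 1, or 1293-fold at the upper end of the exact interval. The deposited upper bound for Rpl39l in that library was wider, at 0.37 TPM. In replicate 2 the ratio was 3732, with an interval of 678 to 149180. Rpl10l, a single-exon retrogene of Rpl10, likewise had 0 and 1 counts beside 488 and 649 TPM for Rpl10. In replicate 1 Rpl10 was at least 3449-fold higher against the same floor, or 2805-fold at the upper end of the exact interval, and in replicate 2 the ratio was 16226, with an interval of 2684 to 590591. These intervals cover counting error only. The posterior mean TPM set these genes higher, at 0.27 and 0.27 for Rpl3l, 0.15 and 0.22 for Rpl39l and 0.05 and 0.08 for Rpl10l, so ratios from it are smaller. None of the transcripts of Rpl3l, Rpl10l and Rpl39l shared a 100-nt window with another annotated gene.

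Markers of the tissues that express these paralogs were low but not all absent. Of 6 germ cell markers 0 reached 1 TPM in both libraries, and their sum was 2.01 and 1.85 TPM, with Ddx4 at 0.59 and 0.41. Of 8 skeletal muscle markers 8 did, with a sum of 128 and 229 TPM, to which Acta1 gave 48.3 and 139 TPM. Of 4 heart markers 2 did, with a sum of 13.6 and 10.3 TPM, and Myh6 stood at 0.58 and 0.35. Their part in the few counts of Rpl3l was not tested.

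**Figure D4:**
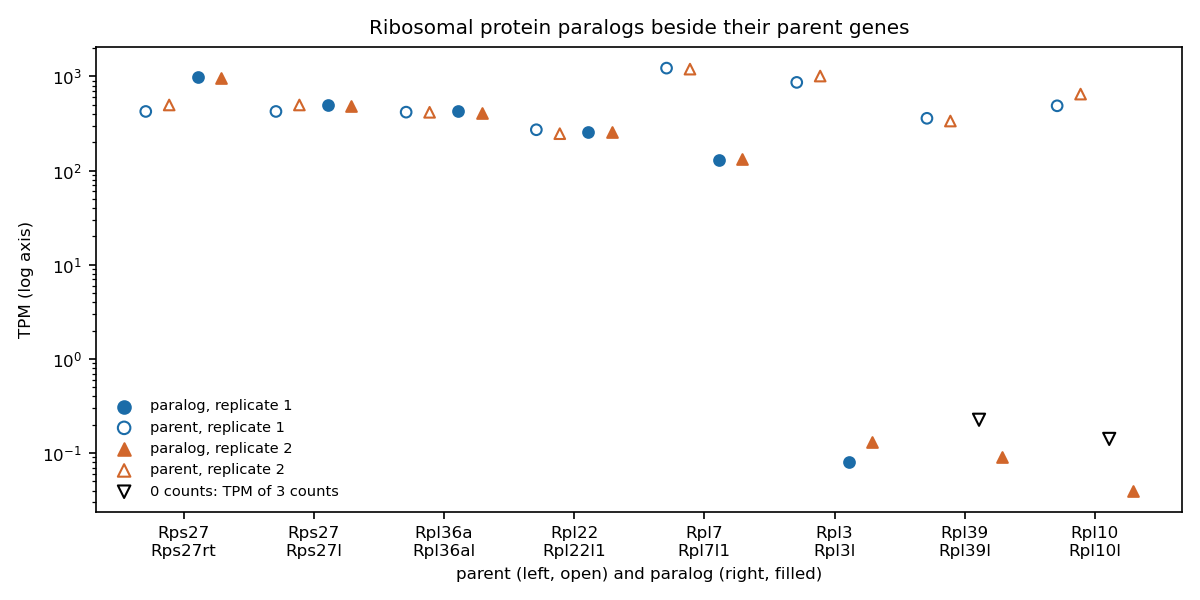
TPM of 8 paralogs (filled) and their parents (open) in each library on a log axis, with open triangles that point down at the TPM of 3 counts where a paralog had 0 counts. Rps27rt, Rps27l, Rpl36al and Rpl22l1 lie near or above the parent, and Rpl3l, Rpl39l and Rpl10l lie below 0.3 TPM.

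The 50 bases around the annotated start of 5 members are shown because a pyrimidine run there is a known shared feature of these mRNAs. They are RefSeq windows on GRCm38.p6, with the start after base 25. Capitals mark a C followed by at least 4 pyrimidines that begins within 10 bases of the start. The core members Rps18, Rplp2 and Rps19 were picked from those with such a run, so its presence in them is no result. For a paralog with more than 1 window, a window with such a run was taken first. The windows are Rps18 at chr17:33955641-33955690 (- strand), Rplp2 at chr7:141447626-141447675 (+ strand), Rps19 at chr7:24884888-24884937 (+ strand), Rpl22l1 at chr3:28805483-28805532 (+ strand) and Rpl7l1 at chr17:46782632-46782681 (- strand).
Rps18: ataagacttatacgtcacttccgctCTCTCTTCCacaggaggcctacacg
Rplp2: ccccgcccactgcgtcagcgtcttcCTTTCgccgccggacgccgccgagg
Rps19: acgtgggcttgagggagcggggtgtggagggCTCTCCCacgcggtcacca
Rpl22l1: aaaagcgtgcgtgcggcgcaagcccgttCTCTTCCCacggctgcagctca
Rpl7l1: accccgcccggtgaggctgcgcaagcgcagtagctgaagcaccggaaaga
In Rps18 and Rplp2 the C at the annotated start was followed by such a run, and further pyrimidines stood directly before it. In Rps19 the marked bases began 6 bases and in Rpl22l1 3 bases further in, and in Rpl7l1 these letters are not in this window. RefSeq windows were available for 66 members, and the search read the strand of the gene. A C with at least 4 pyrimidines stood at the annotated start of 14 of the 66, or 21.2%, where 3.01% of 27025 genes had it. Within 10 bases of the start it was in 40 of the 66, or 60.6%, against 34.4% of all genes. Of the 14 genes, 13 were core members and 1 was Rps27rt. Annotated starts can lie off the true start, so a window without the run says only that these letters are not there.

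Other genes of the pathway were set beside the members. The 14 translation factors and partners whose mRNAs are of the terminal oligopyrimidine class had a median of 344 and 351 TPM, led by Eef1a1, which brings aminoacyl-tRNA to the ribosome, at 4161 and 4362 TPM, above every core member. Npm1 stood at 827 and 837 TPM, Tpt1 at 722 and 778, and Hnrnpa1 at 733 and 676, within the range of core members, and Eif3f, at 72.3 and 67.2, was the lowest. The 23 assembly factors had a median of 71.4 and 73.8 TPM, from Ncl at 410 and 360 to Rrp12 at 15.4 and 14.2. The 11 RNA polymerase I genes, which serve to make ribosomal RNA, had a median of 32.2 and 28.6 TPM. Among 9 regulators of these mRNAs, Cnbp stood at 857 and 898 TPM, Myc at 109 and 98.0, Larp1 at 15.6 and 15.4 and Mtor at 15.3 and 13.8. All of the genes in these lists that matched reached 1 TPM in both libraries.

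By the labels the libraries differ only by pool, and whether their handling differed is not known. Ratios between them describe spread within the group, which may be partly technical. Counts were scaled by TMM, a scaling to the bulk of genes, and given as log2 of replicate 2 over replicate 1. The 77 core members had a median of 0.05 with an SD of 0.11, and 58 of them, 75.3%, were above 0. Of the 2484 protein-coding genes at or above the level of Rpl5 that are no members, 73.8% were also above 0, with a median of 0.06 and an SD of 0.22. The median of core members was near that of these genes, and their SD was smaller. No member that entered, 0 of 83, passed 1.5-fold in either direction, where 2.06% of 15362 genes were higher in replicate 2 and 3.76% were higher in replicate 1. Scaling to spike-ins moved the median of all genes to 0.43 and that of core members to 0.48. With it 14 of 83 members passed 1.5-fold, but the share of all genes past 1.5-fold was not counted for this scaling.

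The largest ratios belonged to Rpl10, a late-joining protein of the large subunit, at 0.42, Rpl13 at 0.34, Rps12 at 0.33, Rpl19 at 0.30, Rps7 at 0.29, Rps6, the target of the S6 kinases, at 0.29, and Rpl11 at 0.26. In TPM, Rpl10 stood at 488 and 649, Rpl13 at 872 and 1111, and Rpl19 at 722 and 888. The matched pseudogenes of these members moved the other way, some of them little. The counts on those of Rpl10 had a log2 ratio of -1.12, on those of Rpl19 -1.28 and on those of Rpl13 -0.30. The ratio was -0.57 for those of Rps7, -0.40 for Rpl11, -0.16 for Rps6 and -0.13 for Rps12. Rpl10-ps1 stood at 191 and 85.7 TPM, and Rpl19-ps11 at 211 and 85.9 TPM. With member and pseudogene counts added together, the ratio became 0.17 for Rpl10, 0.04 for Rpl13, 0.08 for Rps12, 0.07 for Rpl19, -0.03 for Rps7 and 0.07 for Rps6. Over core members the median went from 0.05 to 0.00 and the SD from 0.11 to 0.07, with 54 of 77 nearer to 0.

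Of 106 matched pseudogenes with a mean of at least 1 CPM, 96 were lower in replicate 2, with a median log2 ratio of -1.01, and 68 passed 1.5-fold, or 64.2%. The pattern was not confined to ribosomal copies: of 363 other pseudogenes, 195 were lower by 1.5-fold or more, or 53.7%, with a median of -0.68. Over the 77 core members the ratio between the pools and the share of windows found in other genes had a Spearman rho of 0.38, as a description. The cause of this difference was not tested. The lowest ratios were those of Rps21 at -0.13, Rpl39 at -0.10, Rps24 at -0.09 and Rpl32 at -0.09. Their matched pseudogenes were lower in replicate 2 as well, at -2.435 for Rps21, -0.76 for Rpl39, -1.36 for Rps24 and -0.63 for Rpl32. Those of Rps21 had 17.9 and 2 counts.

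**Figure D5:**
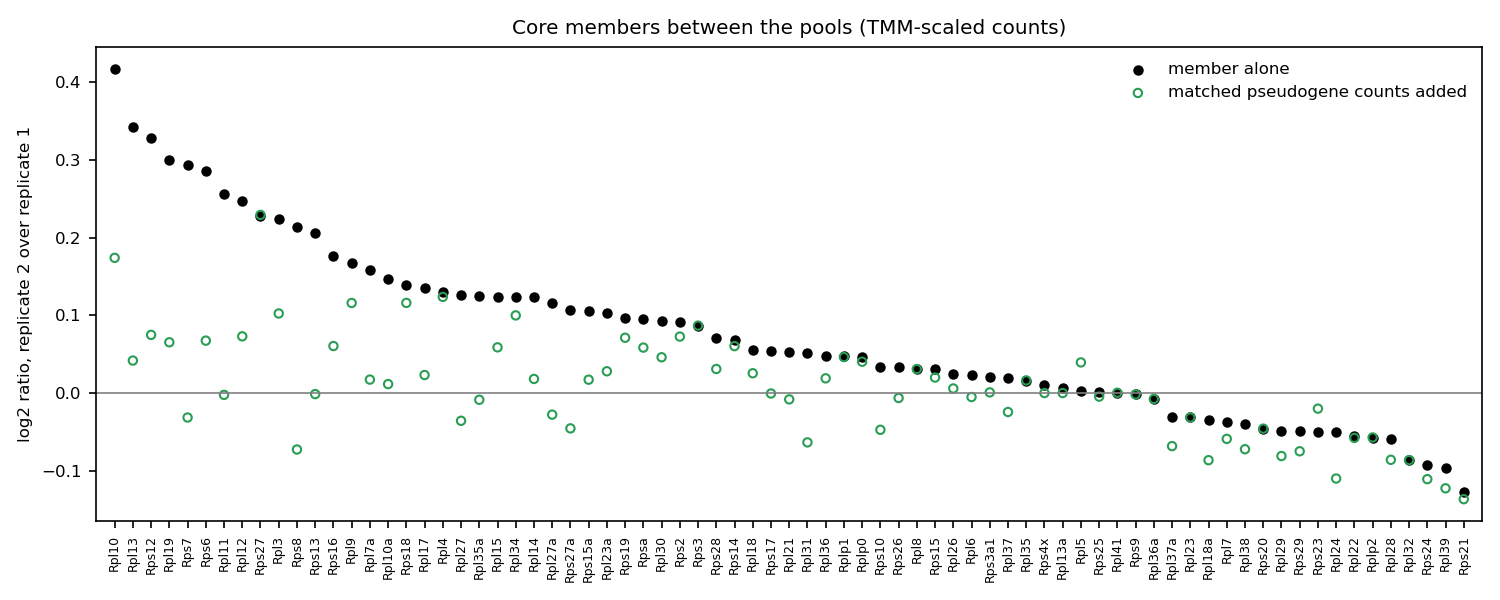
Log2 ratio of replicate 2 over replicate 1 for 75 of the 77 core members, from TMM-scaled counts, for the member alone (black) and with matched pseudogene counts added (open green). The black points run from 0.42 for Rpl10 to -0.13 for Rps21, and the open points from 0.23 to -0.14.

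Markers of other cells also moved between the pools. The skeletal muscle sum went from 128 to 229 TPM, with Acta1 alone at 48.3 and 139 TPM. Myl1 stood at 22.3 and 23.6 TPM and Mylpf at 22.4 and 21.2, and the median log2 ratio of the 8 genes was 0.20. Of the 8, 2 passed 1.5-fold upward, where 2.06% of 15362 genes did. Of the 3 heart markers that entered, 2 passed 1.5-fold downward, where 3.76% of 15362 genes did, with Myl7 at 7.45 and 4.25 TPM. The 4 liver markers summed to 134 and 167 TPM, and the 5 red cell markers to 8788 and 8471 TPM, with Hbb-bs at 5052 and 4882. Their part in the ratios of core members was not tested.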

How the data were processed

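Total RNA-seq of 2 embryonic kidney libraries was described without tests, since there is 1 group. The members and gene lists were chosen with earlier results of these data known. The values are on assembly mm10 with annotation M4, per the notes that the authors deposited. No source used here names the aligner, the quantifier or the strandedness, and antisense overlaps are therefore uncertain. The authors deposited expected counts, which split a read among the genes it fits. The deposited TPM and FPKM were normalized by the authors for length and depth. The deposited lower and upper bounds are handled as a non-negative signal. Transcript tables also hold a deposited percent, the share of a transcript in its gene. TPM includes spike-ins and other entries in its total.

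Symbols, types and coordinates came from GENCODE vM21 (GRCm38), promoter windows from RefSeq (GRCm38.p6). Rounded expected counts were scaled with TMM in edgeR 4.0.16, with prior count 2 and a mean of at least 1 CPM, and with DESeq2 1.42.0 size factors as an alternative. Pseudogenes were matched to members with blastn 2.17.0 at 90% identity, over 50% of their length and 100 nt. Coding sequences were aligned globally with Biopython, taking the paralog's reading frame closest in length to the longest of the parent. The scripts were tested on simulated counts. Genes named are all paralogs, the 12 highest and 12 lowest core members, the 10 with the widest bounds, up to 8 with the largest ratio between the pools, X-linked and stalk genes, up to 8 with the least coding share or a leading transcript that differs, and up to 4 highest and 2 lowest of each other list; others (such as Rpl23a, Rps3 and single pseudogenes) were named after their values were seen. Nothing shows whether the pools differ by more than handling, so the spread may be partly technical. A few genes that the naming rule takes are not reported here by name or in the plots.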

Additional observations from a re-analysis of the deposited data

How the results depend on the processing

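The 83 detected members were the same number under FPKM, posterior mean TPM and thresholds of 0.5 and 5 TPM. The members' share of TPM, 5.88% on average, was 6.22% over mouse genes alone and 2.35% of expected counts. The core median of 669 TPM became 636 on protein-coding transcripts and 755 with matched pseudogene counts added. The ratio of the 90th to the 10th percentile, 4.82, became 6.03 on coding transcripts, 5.06 at effective lengths of 300 nt or more and 3.22 with pseudogene counts added; the SD of log2 TPM, 0.98, became 1.32, 0.998 and 0.67. The log2 ratio of the subunit medians, -0.06, became -0.18 on coding transcripts, -0.32 as a mean of log2 TPM and -0.19 with pseudogene counts added. Wide bounds numbered 3 at 1.5 and 5 at 1.2. Named pseudogenes held 9.83% of the TPM on members and named pseudogenes together, and 7.08% of such counts. Pseudogenes matched by sequence held 21.4% of the TPM on members and matched pseudogenes together, and 15.04% of such counts. The median ratio of the pools, 0.05, was 0.47 against spike-ins. There 14 members passed 1.5-fold, without a share of all genes to set beside them. The pyrimidine run was in 40 members within 10 bases of the start and in 10 with at least 6 pyrimidines after the C, against 14. Posterior mean TPM raised the ratio to the parent from 1.1e-04 to 3.0e-04 for Rpl3l, from 1.3e-04 to 5.5e-04 for Rpl39l and from 3.1e-05 to 1.2e-04 for Rpl10l. Leaving out a library gave 5.75% to 6.003% for the share, 648 to 689 TPM for the median, 4.68 to 4.95 for the percentile ratio, 0.97 to 0.98 for the SD, -0.10 to -0.02 for the subunit ratio and 8.69% to 10.98% for named pseudogenes. Alternatives with pseudogene counts were chosen after seeing the data. The cause of these moves was not tested. No paired analysis was possible because there is 1 group.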
